A study of Mus musculus with 6 samples.

Results

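Epithelial chemokines were examined in colon epithelial cells (IECs) of mice with chemical colitis. They were chosen by gene symbol, as Cxcl1, Cxcl2, Cxcl5, Cxcl9, Cxcl10, Cxcl16, Ccl20, Ccl25, Ccl28 and Cx3cl1, and each of these 10 genes had 1 row among the 55487 genes of the deposited count table. The study asked what the histone methyltransferase NSD2, which dimethylates histone H3 on its lysine 36, does in the inflamed intestinal epithelium. There were 3 RNA-seq libraries from Nsd2 f/f mice (the controls), which carry Nsd2 alleles flanked by loxP sites without Cre, and 3 from Nsd2 Vil-KO mice (the knockout), which carry those alleles and a Cre recombinase under the Villin promoter. All the animals drank dextran sodium sulphate (DSS), a detergent-like polymer that damages the lining of the colon. Colitis was induced with 2% DSS at 2 months of age on a C57BL/6J background, and the cells were shaken off the colon with EDTA. The Villin promoter restricts the deletion to intestinal epithelial cells, so any other cell that came off with them keeps Nsd2. The day of harvest for RNA-seq is not given in the sources used here, and no untreated library was analysed, so levels before DSS are not known. Control libraries are titled WT in the labels and have the genotype NSD2-FF there, and knockout libraries have NSD2-FF-VILCRE. The labels number the libraries but do not state that each came from a separate animal, and p-values measure the spread between these libraries.

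Chemokines are small secreted or membrane-tethered proteins that guide leukocytes by binding G protein-coupled receptors. In the gut epithelium, interleukin-1, tumour necrosis factor, interleukin-17 and bacterial products raise the transcripts of the neutrophil attractants Cxcl1, Cxcl2 and Cxcl5 through NF-kB, while interferons raise Cxcl9 and Cxcl10 through their own receptors and the interferon regulatory factors. Ccl25 and Ccl28 are made without inflammation and guide lymphocytes and antibody-secreting cells to mucosal surfaces, Ccl20 recruits cells that bear CCR6, and Cxcl16 and Cx3cl1 are anchored in the membrane until a protease sheds them.

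The promoters of the neutrophil attractants and of the interferon-induced pair are shown because the text contrasts these groups. RefSeq start sites on GRCm38.p6 were available for 8 of the 10 chemokines, and Cxcl5 and Cxcl16 had no entry. Each line below holds the 250 bases before the start site, 5′ to 3′ on the strand of the gene. Capitals mark matches to GGGANNTTC, a part of the kappaB site bound by NF-kB, to GAAANNGAA, a part of the interferon-stimulated response element (ISRE), and to TATAAA, searched on both strands. The windows lie at chr5:90890995-90891244 on the plus strand for Cxcl1, chr5:90903649-90903898 on the plus strand for Cxcl2, chr5:92328080-92328329 on the minus strand for Cxcl9 and chr5:92348890-92349139 on the minus strand for Cxcl10.
Cxcl1: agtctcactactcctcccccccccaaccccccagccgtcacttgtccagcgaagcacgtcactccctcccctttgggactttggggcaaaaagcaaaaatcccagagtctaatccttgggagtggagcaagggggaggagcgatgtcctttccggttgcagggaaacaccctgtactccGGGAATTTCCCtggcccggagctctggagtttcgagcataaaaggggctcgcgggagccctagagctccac
Cxcl2: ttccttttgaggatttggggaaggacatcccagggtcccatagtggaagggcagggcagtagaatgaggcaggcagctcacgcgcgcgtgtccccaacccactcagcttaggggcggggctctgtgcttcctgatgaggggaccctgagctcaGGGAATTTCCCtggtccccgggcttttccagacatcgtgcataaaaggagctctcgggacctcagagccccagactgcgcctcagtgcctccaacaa
Cxcl9: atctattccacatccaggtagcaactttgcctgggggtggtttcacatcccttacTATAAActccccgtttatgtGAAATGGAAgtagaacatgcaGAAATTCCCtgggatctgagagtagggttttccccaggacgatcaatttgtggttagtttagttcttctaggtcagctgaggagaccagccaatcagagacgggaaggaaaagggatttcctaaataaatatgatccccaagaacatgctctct
Cxcl10: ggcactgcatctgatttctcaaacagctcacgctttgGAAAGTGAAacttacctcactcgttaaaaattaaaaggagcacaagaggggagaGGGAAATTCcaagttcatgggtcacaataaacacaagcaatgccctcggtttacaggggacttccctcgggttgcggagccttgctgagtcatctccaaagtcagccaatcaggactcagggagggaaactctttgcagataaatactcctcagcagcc

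In Cxcl1 and Cxcl2 the kappaB letters were read on both strands of the same palindromic stretch, starting at −71 and −69 from the start site in Cxcl1 and at −97 and −95 in Cxcl2. In Cxcl9 the kappaB letters started at −154 on the opposite strand and the ISRE letters at −175. In Cxcl10 the corresponding positions were −159 and −213. The neutrophil attractants shown thus held kappaB letters without ISRE letters, and the interferon-induced pair held both. Counting 250 bases before and 50 after the start, the kappaB letters occurred in 3.94% of 32851 RefSeq promoters, the ISRE letters in 8.56% and TATAAA in 13.6%. TATAAA was also read at −195 in Cxcl9, at −16 in one of the 2 Ccl25 promoters and at −6 in Cx3cl1, while Ccl20, Ccl28 and the other Ccl25 promoter held none of the 3 motifs. A match describes letters, not a bound site.

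**Figure D1:**
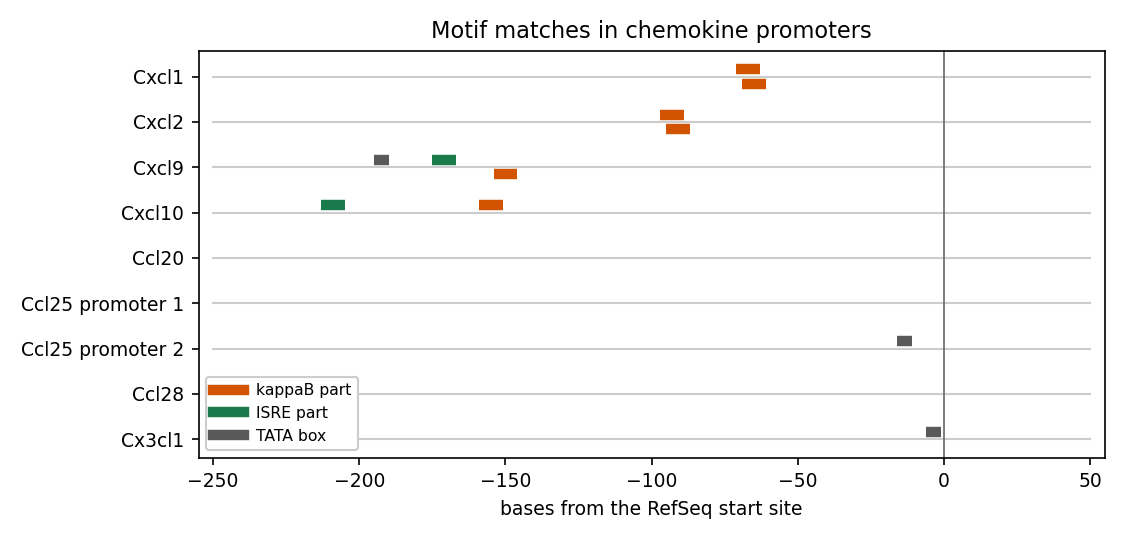
Matches to the 3 motifs in the promoters of 8 chemokines, by bases from the RefSeq start site, drawn above the line for the gene's own strand and below it for the opposite strand. KappaB letters lie at −71 and −69 in Cxcl1 and at −97 and −95 in Cxcl2, and ISRE letters only in Cxcl9 and Cxcl10 among these promoters.

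Libraries held between 15439123 and 20350539 counted reads, so 3 counts correspond to between 0.146 and 0.242 CPM (counts per 1000000 counted reads, scaled by edgeR's TMM method). Nsd2 (ENSMUSG00000057406) measured 24.2, 10.4 and 20.8 CPM in the knockout (replicates 1, 2 and 3, the order used throughout) and 47.9, 51.2 and 24.6 CPM in the controls, lower in each knockout library than in each control library, although f/f replicate 3 lay close to Vil-KO replicate 1. Xist transcripts were present in Vil-KO replicate 2 and f/f replicate 3, at 3684 and 4296 counts, and numbered 1 to 5 in the other 4 libraries. Mitochondrial genes took 19.6% of counts in f/f replicate 3 and between 5.51% and 9.13% elsewhere. Epithelial markers dominated each library: the summed level of 9 of them, Epcam, Cdh1 and keratins included, lay between 15000 and 25050 CPM. The sum was 1131 to 2639 CPM for 8 neutrophil markers, with Cd177 at 54.2% of it. It was 111.4 to 447.8 CPM for 9 monocyte and macrophage markers and 5.05 to 262.8 CPM for 6 fibroblast markers. In f/f replicate 3 the neutrophil sum was mostly Cd177 (925 CPM) and Ly6g (197 CPM). S100a9, S100a8, Csf3r and Cxcr2 were at 4.69, 3.07, 0.73 and 0 CPM there, so the sum is no measure of neutrophil content.

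No chemokine passed the test between genotypes. All 10 passed edgeR's filter on low counts, and 0 of 10 passed the screening criterion (fold change above 1.2 with an unadjusted p below 0.05), against 482 of 14650 genes, 3.29%, over the whole table, or 1.65% in each direction. At an adjusted p below 0.05 (edgeR's quasi-likelihood test with Benjamini-Hochberg adjustment) the count was 0 for the chemokines and 0 for all genes, 0% of the table, where the smallest adjusted p was 0.992. DESeq2 gave 4 genes at that level and limma-voom 0. In the 4 libraries without Xist transcripts 0 of 10 chemokines passed the screening criterion, beside 1646 of 15030 genes tested there. The chemokines are too few to be set apart from that share. The levels of the genotypes overlapped for all 10 chemokines. Over the whole table they did not overlap for 1451 genes, 9.9% of those tested. With so few chemokines, 0 of 10 cannot be set apart from that share. Log2 fold changes (Nsd2 Vil-KO minus Nsd2 f/f) were above 0 for 5 chemokines and below 0 for 5, with a median of −0.0086 beside a median of 0.0012 over all genes. Unadjusted p-values of the 10, from edgeR's quasi-likelihood test, ran from 0.0626 to 0.889. For 1 gene, the exact permutation test of 3 libraries and 3 has 0.1 as its smallest possible p. In bulk RNA, fewer cells of a type and less RNA per cell cannot be told apart.

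**Figure D2:**
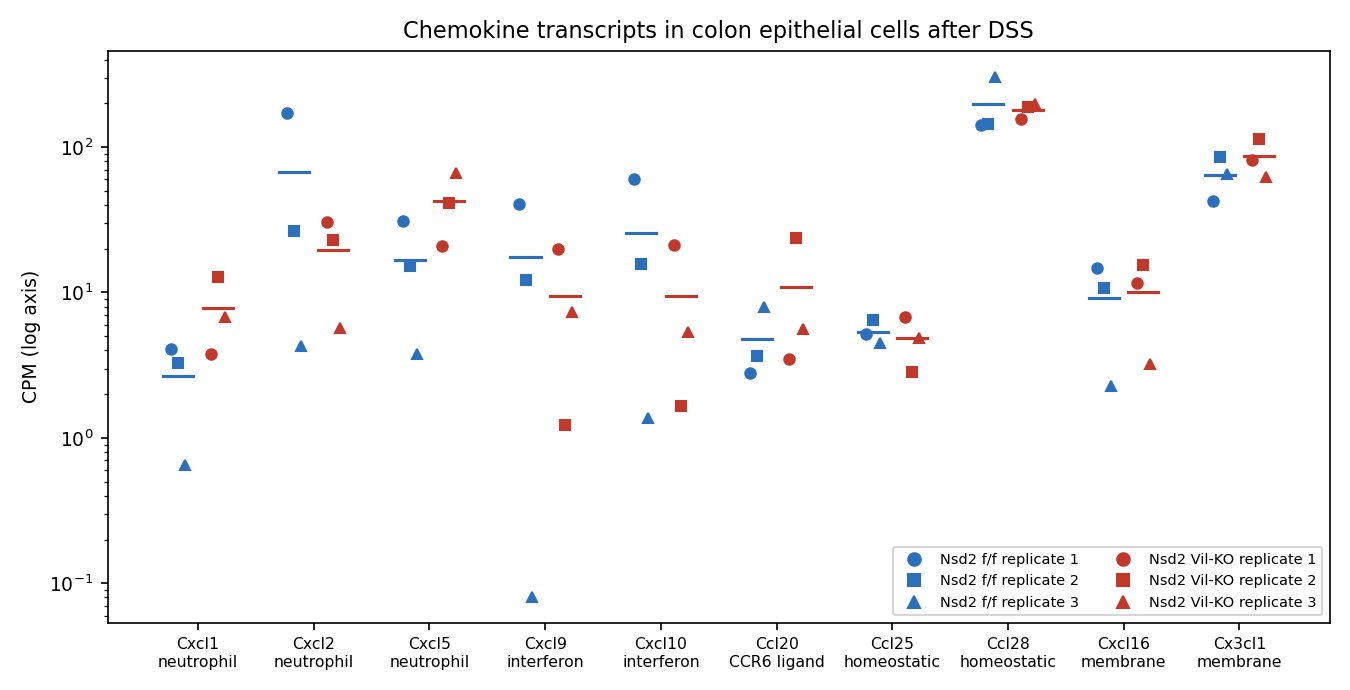
CPM of each chemokine (log axis) in the 3 Nsd2 f/f libraries (blue) and the 3 Nsd2 Vil-KO libraries (red), with 1 symbol per replicate and a bar at the mean of each genotype. The genotypes overlap for each of the 10 chemokines, and Cxcl9 in f/f replicate 3, at 0.08 CPM, is the lowest point.

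Compared per kilobase of exon, chemokine levels spanned a wide range. Ccl28 stood highest, at a mean of 39.1 CPM per kilobase over the 6 libraries with a lowest of 29.4 and a highest of 62.9. Cxcl2 (mean 21.1, from 2.07 to 83.2), Cx3cl1 (19.2, from 10.8 to 29.1) and Cxcl5 (15.9, from 2.04 to 35.5) followed, with ranges that overlapped one another. The range of Cx3cl1 ended just below that of Ccl28, and those of Cxcl2 and Cxcl5 reached into it. Cxcl10 (7.8), Ccl20 (5.51), Cxcl9 (4.48), Cxcl16 (3.19) and Cxcl1 (2.79) came next, again with overlapping ranges. Ccl25 had the lowest mean, 0.687 CPM per kilobase, and its highest library, 0.917, lay below the lowest library of Ccl20, 1.95. It lay above the lowest library of Cxcl16 (0.749), Cxcl10 (0.61), Cxcl1 (0.345) and Cxcl9 (0.0268). Exon length was taken over all annotated transcripts, so a level per kilobase understates a gene from which mainly a short transcript is made. Among the other chemokine ligands, Ccl6 stood above Ccl28, at a mean of 228 CPM per kilobase (from 96.6 to 300). Ccl5 had a mean of 22.7.

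Among the neutrophil attractants, Cxcl1 and Cxcl5 had higher mean levels in the knockout and Cxcl2 a lower one, and none of these differences passed the test. All 3 genes encode ligands of CXCR2 and lie in 1 cluster on chromosome 5. Cxcl1 (ENSMUSG00000029380, chr5:90891241-90893115, plus strand) was at 3.75, 12.87 and 6.79 CPM in Vil-KO replicates 1, 2 and 3 and at 4.11, 3.25 and 0.65 CPM in f/f replicates 1, 2 and 3. Vil-KO replicates 2 and 3 lay above every control library, Vil-KO replicate 1 lay between the controls, and f/f replicate 3, with 8 reads, was far below the rest. The means were 7.81 ± 4.64 and 2.67 ± 1.8 CPM (SD, n = 3 each), a log2 fold change of 1.5 with a standard error of 0.68 (edgeR's quasi-likelihood test, adjusted p = 0.992), and the exact permutation test gave p = 0.2. Without Vil-KO replicate 1 the log2 fold change was 1.85 and passed the criterion (edgeR, unadjusted p = 0.0384), and it did so with all libraries under DESeq2 (unadjusted p = 0.0347) and in edgeR without a filter on low counts (unadjusted p = 0.0381). It passed in none of the other alternatives in which it was tested. In the 4 libraries without Xist transcripts it was 0.51, and in limma-voom 0.67. Without Vil-KO replicate 2 it was 0.93 and without f/f replicate 3 it was 1.08.

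Cxcl5 (ENSMUSG00000029371, chr5:90759360-90761624, plus strand), which epithelial cells secrete more than leukocytes do, was at 20.7, 41.3 and 66.1 CPM in Vil-KO replicates 1, 2 and 3 and at 30.8, 15.3 and 3.8 CPM in f/f replicates 1, 2 and 3. Again Vil-KO replicates 2 and 3 were above every control library and Vil-KO replicate 1 lay among them. The mean was 42.7 ± 22.7 CPM in Nsd2 Vil-KO and 16.6 ± 13.5 CPM in Nsd2 f/f (SD, n = 3 each). The log2 fold change was 1.35 with a standard error of 0.71 (adjusted p = 0.992, edgeR's quasi-likelihood test), with p = 0.2 in the exact permutation test. It rose to 2.15 and passed the criterion without f/f replicate 1 (edgeR, unadjusted p = 0.0222). It fell to 0.89 without Vil-KO replicate 3, and likewise to 0.89 without f/f replicate 3, and passed in neither. Cxcl1 and Cxcl5 kept a log2 fold change above 0 in each alternative in which they were tested.

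Cxcl2 (ENSMUSG00000058427, chr5:90903871-90905938, plus strand), which macrophages and neutrophils also make in quantity, behaved otherwise. It was at 30.4, 22.9 and 5.72 CPM in Vil-KO replicates 1, 2 and 3 and at 172, 26.4 and 4.28 CPM in f/f replicates 1, 2 and 3. One control library stood far above the other 5, whose values were interleaved between the genotypes. Its means were 19.7 ± 12.7 CPM in Nsd2 Vil-KO and 67.6 ± 91.1 CPM in Nsd2 f/f (SD, n = 3 each), and the log2 fold change was −1.78 with a standard error of 1.17 (adjusted p = 0.992, edgeR's quasi-likelihood test) and p = 0.8 in the exact permutation test. Without f/f replicate 1 the log2 fold change was 0.35, and without f/f replicate 3 it was −2.33 and passed the criterion (edgeR, unadjusted p = 0.0418). The direction of Cxcl2 therefore rested on f/f replicate 1.

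The balance between the attractants also differed from library to library. There were 8.1, 1.78 and 0.842 reads of Cxcl2 for each read of Cxcl1 in Vil-KO replicates 1, 2 and 3, against 41.8, 8.13 and 6.62 in f/f replicates 1, 2 and 3. For Cxcl2 over Cxcl5 the ratios were 1.47, 0.553 and 0.0866 in the knockout and 5.59, 1.73 and 1.13 in the controls. Both ratios overlapped between genotypes through Vil-KO replicate 1, and in f/f replicate 3 the ratio to Cxcl1 rests on 8 reads of Cxcl1. Cxcl5 over Cxcl1 stayed closer, between 3.21 and 9.73 in all 6 libraries. These ratios compare libraries for 1 pair of genes, do not depend on the scaling, and were not tested.

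**Figure D3:**
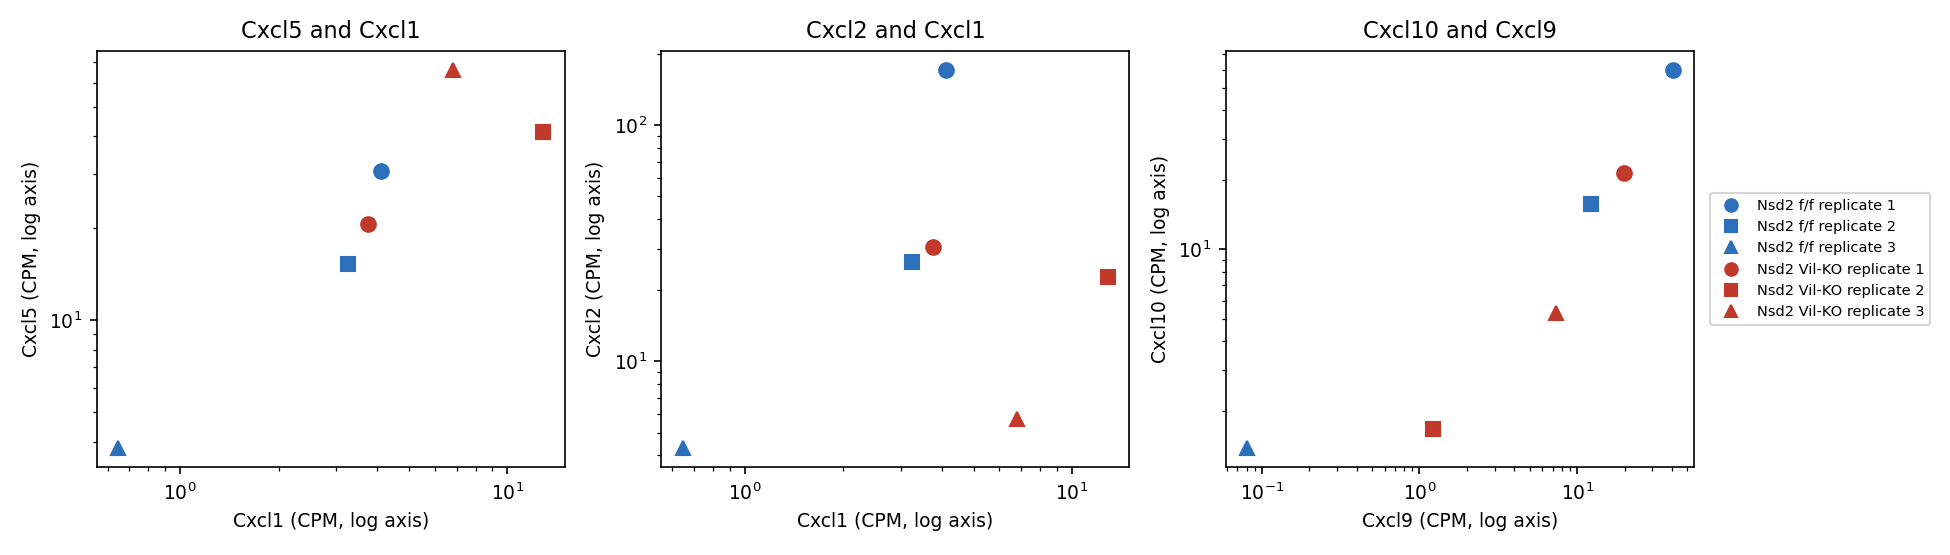
CPM of Cxcl5 and of Cxcl2 against Cxcl1, and of Cxcl10 against Cxcl9, on log axes, with 1 symbol per library. Cxcl5 rises with Cxcl1 and Cxcl10 with Cxcl9 over the 6 libraries, while Nsd2 f/f replicate 1 lies far above the others in Cxcl2, at 172 CPM.

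The interferon-induced chemokines had lower means in the knockout, by less than the SD of the control libraries, and neither passed the test. CXCL9 and CXCL10 attract activated T cells and natural killer cells through CXCR3. Cxcl9 (ENSMUSG00000029417, chr5:92321347-92328079, minus strand) was at 19.8, 1.22 and 7.36 CPM in Vil-KO replicates 1, 2 and 3 and at 40.3, 12.2 and 0.08 CPM in f/f replicates 1, 2 and 3, the last from 1 read. The highest and the lowest library were both controls. Its means were 9.47 ± 9.49 CPM in Nsd2 Vil-KO and 17.6 ± 20.6 CPM in Nsd2 f/f (SD, n = 3 each), with a log2 fold change of −0.90, a standard error of 1.36 (adjusted p = 0.993, edgeR's quasi-likelihood test) and p = 0.9 in the exact permutation test.

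Cxcl10 (ENSMUSG00000034855, chr5:92346638-92348889, minus strand) was at 21.3, 1.66 and 5.31 CPM in Vil-KO replicates 1, 2 and 3 and at 60, 15.7 and 1.37 CPM in f/f replicates 1, 2 and 3. The 6 libraries stood in the same order as for Cxcl9, with both Xist-bearing libraries at the bottom. The means were 9.43 ± 10.5 and 25.7 ± 30.5 CPM (SD, n = 3 each), the log2 fold change −1.45 with a standard error of 1.24 (adjusted p = 0.992, edgeR's quasi-likelihood test), and the exact permutation test gave p = 0.8. Exons of Art3 overlap 133 bases of Cxcl10 on the opposite strand, and reads cannot be told apart there if strand was not used in counting. Without f/f replicate 1 the log2 fold change was 0.60 for Cxcl9 and 0.13 for Cxcl10, so both directions rested on that library. Between 0.722 and 1.49 reads of Cxcl10 were counted for each read of Cxcl9 in 5 libraries, and 17 in f/f replicate 3, where Cxcl9 had 1 read.

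Ccl20 and the homeostatic pair did not separate the genotypes either. Ccl20 (ENSMUSG00000026166, chr1:83116766-83119167, plus strand), an NF-kB-induced product of the epithelium over lymphoid follicles, was at 3.51, 23.5 and 5.62 CPM in Vil-KO replicates 1, 2 and 3 and at 2.77, 3.66 and 7.92 CPM in f/f replicates 1, 2 and 3. In each genotype the Xist-bearing library was the highest. Its means were 10.9 ± 11 and 4.79 ± 2.75 CPM (SD, n = 3 each), with a log2 fold change of 1.2, a standard error of 0.77 (adjusted p = 0.992, edgeR's quasi-likelihood test) and p = 0.6 in the exact permutation test. Without Vil-KO replicate 2 it was −0.039, and with Xist presence in the model it was 0.89 and passed the criterion (edgeR, unadjusted p = 0.0422).

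Ccl28 (ENSMUSG00000074715, chr13:119623819-119654359, plus strand), whose product binds CCR10 on IgA-secreting plasma cells, was at 155, 189 and 199 CPM in Vil-KO replicates 1, 2 and 3 and at 143, 145 and 304 CPM in f/f replicates 1, 2 and 3. All knockout libraries lay between the second and the highest control library. The log2 fold change was −0.12 with a standard error of 0.33 (adjusted p = 0.996, edgeR's quasi-likelihood test), the exact permutation test gave p = 1, and without f/f replicate 3 the log2 fold change was 0.34. Ccl25 (ENSMUSG00000023235, chr8:4325210-4360020, plus strand), the CCR9 ligand best known from the small intestine, was at 6.83, 2.83 and 4.85 CPM in Vil-KO replicates 1, 2 and 3 and at 5.2, 6.44 and 4.52 CPM in f/f replicates 1, 2 and 3. The controls lay inside the range of the knockout libraries, the log2 fold change was −0.16 with a standard error of 0.40 (adjusted p = 0.996, edgeR's quasi-likelihood test), and without Vil-KO replicate 2 it was 0.11. Exons of Elavl1 overlap 204 bases of Ccl25 on the opposite strand.

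Of the membrane-anchored chemokines, Cx3cl1 was the more abundant. Cx3cl1 (ENSMUSG00000031778, chr8:94772009-94782427, plus strand), or fractalkine, the ligand of CX3CR1 on macrophages, was at 81.8, 114 and 62.6 CPM in Vil-KO replicates 1, 2 and 3 and at 42.4, 85.6 and 64.9 CPM in f/f replicates 1, 2 and 3. The genotypes overlapped, with the highest library in the knockout and the lowest among the controls. The means were 86.2 ± 26.2 and 64.3 ± 21.6 CPM (SD, n = 3 each), and the log2 fold change was 0.42 with a standard error of 0.32 (adjusted p = 0.992, edgeR's quasi-likelihood test). Leaving out 1 library at a time gave values between 0.17 and 0.69.

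Cxcl16 (ENSMUSG00000018920, chr11:70453983-70459984, minus strand), the ligand of CXCR6, was at 11.6, 15.4 and 3.22 CPM in Vil-KO replicates 1, 2 and 3 and at 14.6, 10.8 and 2.26 CPM in f/f replicates 1, 2 and 3. The replicate numbered 3 was lowest in both genotypes and the other 4 libraries were mixed. Its log2 fold change was 0.11 with a standard error of 0.74 (adjusted p = 0.999, edgeR's quasi-likelihood test), and it was −0.0039, −0.34 and −0.34 without Vil-KO replicate 1, without Vil-KO replicate 2 and without f/f replicate 3. Exons of Zmynd15 overlap 552 bases of Cxcl16 on the opposite strand. Transcripts of the shedding proteases Adam10 and Adam17 changed by 0.25 ± 0.19 and 0.0033 ± 0.28 on the log2 scale (value ± standard error), and neither passed the criterion.

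**Figure D4:**
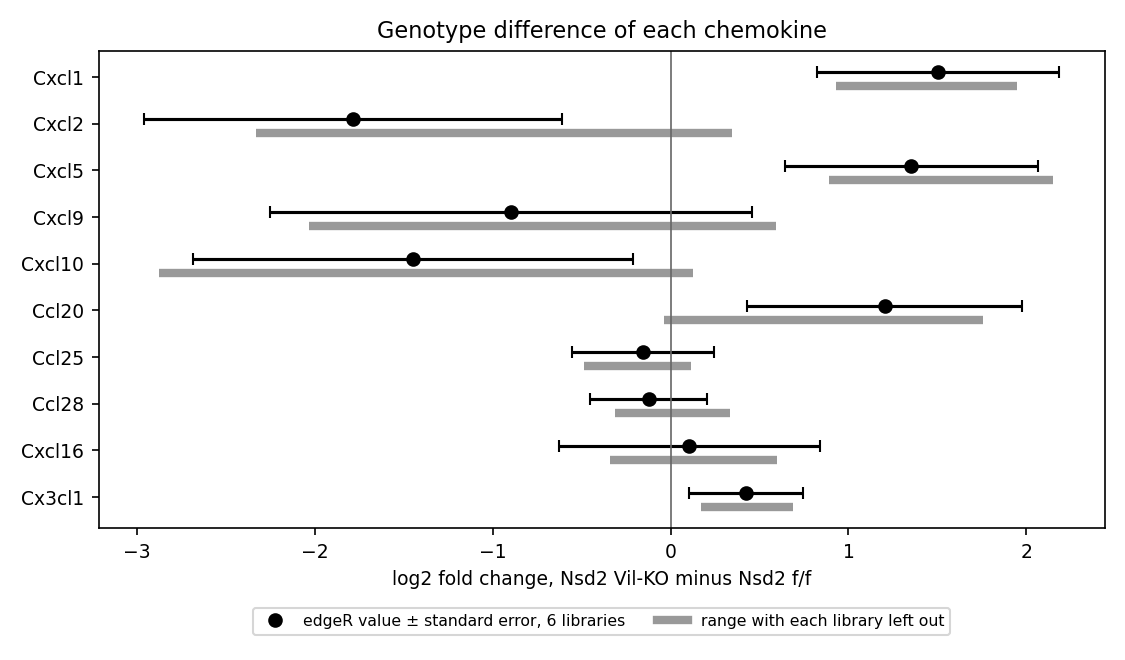
Log2 fold change (Nsd2 Vil-KO minus Nsd2 f/f) of each chemokine with its standard error from edgeR (black), and the range of the value when 1 of the 6 libraries is left out (grey). The grey range stays above 0 for Cxcl1, Cxcl5 and Cx3cl1 and crosses 0 for the other 7.

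The contrast between groups of chemokines was taken within each library, so that it does not depend on library size. Mean log2 CPM of Cxcl1, Cxcl2 and Cxcl5 minus that of Cxcl9 and Cxcl10 was −0.62, 3.91 and 1.12 in Vil-KO replicates 1, 2 and 3 and −0.81, −0.33 and 2.14 in f/f replicates 1, 2 and 3. These values are not divided by exon length, so their sign does not rank the groups and only libraries can be compared. The largest values came from the Xist-bearing library of each genotype. The means were 1.47 ± 2.28 and 0.33 ± 1.58 (SD, n = 3 each), a genotype difference of 1.14 on the log2 scale that is smaller than the SD of either group. This difference lay between −0.079 and 2.18 with each library left out and was 0.82 in the 4 libraries without Xist transcripts, while the Xist-bearing knockout library stood at 3.91 beside 2.14 in the Xist-bearing control.

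Set against the homeostatic pair, the same groups gave a similar picture. Mean log2 CPM of Ccl25 and Ccl28 minus that of the interferon-induced pair was 0.67, 3.94 and 2.31 in Vil-KO replicates 1, 2 and 3 and −0.84, 1.14 and 6.14 in f/f replicates 1, 2 and 3, a genotype difference of 0.16. Neutrophil attractants minus the homeostatic pair gave −1.28, −0.03 and −1.18 in the knockout and 0.035, −1.47 and −4 in the controls, a genotype difference of 0.98. Here too levels are not divided by exon length, so the signs do not rank the groups. Relative to both inducible groups, the homeostatic pair was highest in f/f replicate 3 and lowest in f/f replicate 1. Median log2 fold changes were 1.35 for the neutrophil attractants, −1.17 for the interferon-induced pair, −0.14 for the homeostatic pair and 0.27 for the membrane-anchored pair, with no test because the groups were chosen with results known.

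Inducible chemokines varied between libraries far more than homeostatic ones. From the lowest to the highest of the 6 libraries, Cxcl9 spanned 7.72 on the log2 scale, more than 99.8% of the genes tested. Cxcl10 spanned 5.34 (98.7%), Cxcl2 5.29 (98.6%), Cxcl1 4.1 (96.3%), Cxcl5 4.08 (96.3%), Ccl20 3.03 (91.1%) and Cxcl16 2.71 (88.3%). By contrast Cx3cl1 spanned 1.43 (63.5%), Ccl25 1.24 (56.2%) and Ccl28 1.09 (49.9%), close to the median of 1.1 over all genes. On a linear scale the highest library exceeded the lowest 40.2-fold for Cxcl2, 43.7-fold for Cxcl10 and 2.14-fold for Ccl28. Nsd2 f/f replicate 3 was the lowest library for 6 of the 10 chemokines, Vil-KO replicate 2 the highest for 4 and f/f replicate 1 the highest for 3.

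Markers of other cell types moved between libraries together with some of these chemokines. The summed level of 6 fibroblast markers was 69.9, 5.05 and 15.5 CPM in the knockout and 262.8, 57.1 and 5.82 CPM in the controls, with 5 of the 6 highest in f/f replicate 1, the library with the highest Cxcl2, Cxcl9 and Cxcl10. Of the 9 monocyte and macrophage markers, 8 were highest in f/f replicate 1 and 8 lowest in f/f replicate 3. Their sum, of which Cd14 made up 71%, was 243.3, 175.4 and 277.8 CPM in the knockout and 447.8, 198.6 and 111.4 CPM in the controls, and Adgre1 had no read in f/f replicate 3.

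Neutrophil markers were split: 4 of 8 were highest in f/f replicate 1 and 4 in Vil-KO replicate 2, the library with the highest Cxcl1. Vil-KO replicate 2 was also the lowest library for 2 of the 8, Csf3r (0.67 CPM) and Cd177 (286 CPM). The sum of the 8 neutrophil markers was between 1131 and 2639 CPM, with Cd177 at 54.2% of it and Mpo at or near 0 in each library. S100a8, a neutrophil calprotectin subunit that inflamed epithelium can make too, was at 33.3, 574 and 23.2 CPM in Vil-KO replicates 1, 2 and 3 and at 197, 34.3 and 3.07 CPM in f/f replicates 1, 2 and 3. T cell markers summed to between 9.26 and 18.3 CPM. The part of these cells in the chemokine levels was not tested.

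**Figure D5:**
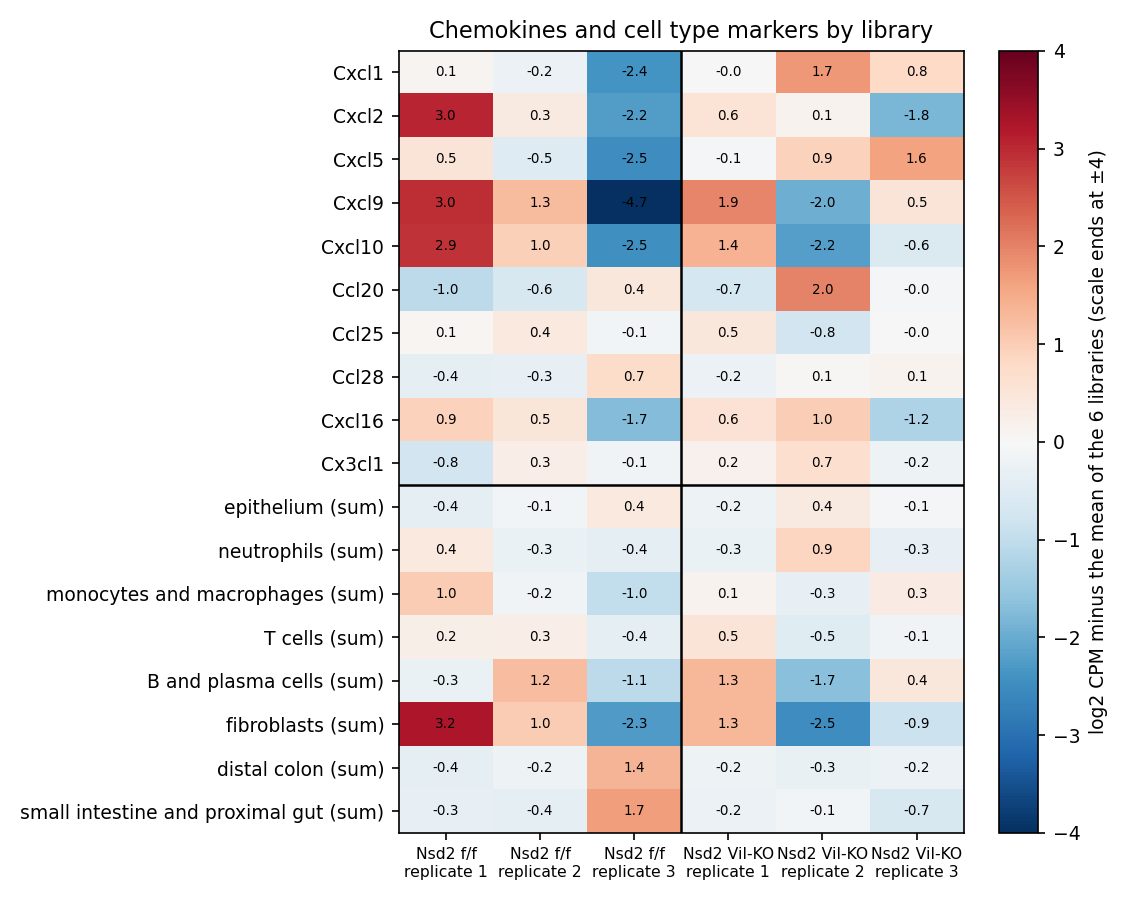
Log2 CPM minus its mean over the 6 libraries, for each chemokine (upper block) and for the summed markers of cell types and gut regions (lower block), on a colour scale that ends at ±4. Cxcl2, Cxcl9, Cxcl10 and the fibroblast markers are highest in Nsd2 f/f replicate 1, and Cxcl1 and Ccl20 are highest in Nsd2 Vil-KO replicate 2.

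The genes whose log2 CPM over the 6 libraries was most like that of a chemokine were listed as a description, by Pearson's r among the 10562 tested genes whose mean reached 5 CPM. For Cxcl1 these were Shc1 (r = 0.998), Rasa1 (0.997), Hbegf (0.996), Gpsm2 (0.995) and Lrrfip1 (0.995), each highest in Vil-KO replicate 2 as Cxcl1 was. Hbegf encodes a growth factor that activates the EGF receptor, and Shc1 an adaptor of receptor tyrosine kinases. For Cxcl10 they were Ptgs2 (0.995), Togaram1 (0.993), Ptprc (0.991), Csf3r (0.991) and Serpinh1 (0.989), each highest in f/f replicate 1. Ptgs2 encodes cyclooxygenase-2, Ptprc the leukocyte antigen CD45, Csf3r the G-CSF receptor of neutrophils and Serpinh1 a collagen chaperone. For Ccl25 they were Krit1 (0.994), 9330151L19Rik (0.993), Anks3 (0.988), Usp49 (0.988) and Cep162 (0.986). With 6 libraries and so many genes, high values of r occur without any relation.

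The other chemokine ligands were counted beside them. Of 27 listed, 15 passed the filter on low counts and 0 of these passed the criterion, which with so few genes cannot be set apart from the 3.29% of all genes, with 4 log2 fold changes above 0, 11 below and a median of −0.64. The nearest relative of Cxcl1 and Cxcl2, Cxcl3, was at 1.46, 4.83 and 1.33 CPM in Vil-KO replicates 1, 2 and 3 and at 12.2, 1.12 and 0.323 CPM in f/f replicates 1, 2 and 3. Like Cxcl2 it was highest in f/f replicate 1, and its log2 fold change of −0.90 had a standard error of 1.14. Cxcl11, the third CXCR3 ligand, was at 2.44, 2.66 and 0.868 CPM in the knockout and at 6, 2.48 and 0.162 CPM in the controls, with a log2 fold change of −0.59 and a standard error of 0.90. Like Cxcl9 and Cxcl10 it was highest in f/f replicate 1 and lowest in f/f replicate 3. Levels of the genotypes did not overlap for 2 of the 15, near the 9.9% of all genes, and both were named after their values were seen. Ccl6, a CC chemokine of rodents, was at 283, 173 and 450 CPM in the knockout. The controls were at 539, 506 and 507 CPM, and the log2 fold change was −0.78 with a standard error of 0.35. Pf4, or platelet factor 4, was at 3.02, 9.32 and 3.58 CPM in the knockout and at 3.02, 2.19 and 1.45 CPM in the controls, with a log2 fold change of 1.22 and a standard error of 0.55. For Pf4 the nearest libraries of the genotypes were level to 3 digits.

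Receptor transcripts were scarce in these cells. Most of these receptors are known from leukocytes. Of 22 listed, 13 were tested and 0 passed the criterion, again beside 3.29% of all genes, with 4 log2 fold changes above 0, 9 below and a median of −0.75. Cxcr2, the receptor of the neutrophil attractants, was at 2.54, 5.1 and 0.511 CPM in Vil-KO replicates 1, 2 and 3 and at 12.5, 2.36 and 0 CPM in f/f replicates 1, 2 and 3. It was highest in the control library with the most Cxcl2, followed by the knockout library with the most Cxcl1. Cxcr3 lay between 0.166 and 1.48 CPM, Cxcr6 between 0.323 and 1.85, Ccr9 between 0.358 and 1.11, Ccr10 between 0.323 and 1.27 and Cx3cr1 between 0.111 and 2.73 CPM. The CCR6 transcript was at most 0.236 CPM and was not tested.

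Genes of the routes that induce these chemokines were counted in the same way, together with Adam10, Adam17 and the IgA receptor gene Pigr. Of 38 listed, 34 were tested, and 1 was higher and 0 were lower in the knockout past the criterion, a share of the tested genes of the list that is not above the 3.29% of all genes. The gene was Zc3h12a, whose product Regnase-1 degrades transcripts of inflammatory cytokines. It was at 115.9, 152.3 and 155.6 CPM in Vil-KO replicates 1, 2 and 3 and at 92.2, 79.6 and 61.7 CPM in f/f replicates 1, 2 and 3. Every knockout library was above every control library, with means of 141 ± 22.1 and 77.8 ± 15.3 CPM (SD, n = 3 each) and a difference of 0.86 ± 0.22 on the log2 scale (value ± standard error). In edgeR's quasi-likelihood test the adjusted p was 0.992 and the unadjusted p was 0.00554. The exact permutation test gave p = 0.1, the smallest it can give. Zc3h12a passed the criterion in each of the 17 alternative fits, and in the 4 libraries without Xist transcripts its log2 fold change was 0.67. It was named because it passed, and refits of the same libraries give no independent support. Levels of the genotypes did not overlap for 2 of the 34 tested genes, beside 9.9% of all genes. These were Zc3h12a and Rela, both higher in the knockout.

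Of the NF-kB route, 18 of 20 genes were tested, with 11 log2 fold changes above 0 and 7 below. Il1b, the cytokine interleukin-1 beta made mainly by myeloid cells, was at 107, 5.88 and 7.76 CPM in Vil-KO replicates 1, 2 and 3 and at 424, 66.1 and 2.34 CPM in f/f replicates 1, 2 and 3. It was highest in f/f replicate 1 and lowest in f/f replicate 3, the order of the extremes of Cxcl2. Of the interferon route, 13 of 15 genes were tested, with 6 values above 0 and 7 below. Irf7, an interferon-induced transcription factor, was at 138, 54.5 and 122 CPM in the knockout and at 252, 636 and 86.4 CPM in the controls, with a log2 fold change of −1.63 and a standard error of 0.70. It was highest in f/f replicate 2, unlike Cxcl9 and Cxcl10, and did not pass the criterion. With Xist presence in the model Irf7 passed it (log2 fold change −1.41, edgeR unadjusted p = 0.0126), as it did in the 4 libraries without Xist transcripts (−1.76, unadjusted p = 0.0486). Irf7 and Il1b were named after their values were seen.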

How the data were processed

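Colon IEC RNA-seq of 3 Nsd2 Vil-KO and 3 Nsd2 f/f libraries was analysed, grouped by sample title and numbered from it. The titles of the f/f libraries read WT, and their genotype label reads NSD2-FF. The deposited table holds raw counts for each Ensembl gene, neither normalised nor filtered by the authors. The submitters' processing notes name HISAT2 and mm10, and the methods describe polyA selection, directional libraries and trimming, while the labels name another library kit. The program that counted reads and its use of strand are not given in the sources used here, so genes overlapping on opposite strands can share reads. Each of the 6 columns was used and 0 were left out, and 0 library pairs were identical.

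The study's FPKM test was replaced by a count test. The fit used edgeR 4.0.16 in R 4.3.3, with TMM factors, filterByExpr by genotype (14650 genes kept), the quasi-likelihood test with robust estimation and no covariates, and Benjamini-Hochberg adjustment over all tested genes. The biological coefficient of variation was 41.2%. Log2 CPM used a prior count of 2. Exact two-sided permutation tests ran over the 10 ways to place 6 libraries in 3 and 3. Positions and exon lengths came from GENCODE vM21 on GRCm38. The test was checked on simulated data. Figures were drawn with matplotlib 3.10.9.

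The chemokines and gene lists were chosen with earlier results of these data known. The rule named the 10 chemokines, Nsd2, genes of the ligand, receptor and induction lists past the criterion, receptors of the chemokines, Adam10, Adam17, Cxcl3, Cxcl11, and the 5 genes most like Cxcl1, Cxcl10 and Ccl25. Marker lists of dendritic cells, endothelium, B and plasma cells, squamous epithelium and gut regions were also summed. Alternatives were normalisation by library size only or by DESeq2-type size factors, no filter, at least 10 counts in each library, DESeq2 1.42.0, limma-voom (limma 3.58.1) with quality weights, robust estimation off, a replicate block, the presence of Xist as a covariate, the 4 libraries without Xist, mitochondrial genes left out, prior counts of 0.5 and 5, and each library left out.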

Additional observations from a re-analysis of the deposited data

How the results depend on the processing

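Genes past the criterion numbered 482 of 14650 tested. Of the same 14650 genes, 633 passed with DESeq2, 1440 with limma-voom and 1145 with Xist as a covariate. The replicate block gave 303 and robust estimation off 492. Elsewhere 861 of 26360 passed with no filter, 486 of 14677 without mitochondrial genes and 1646 of 15030 in the 4 libraries without Xist. With each library left out 323 to 769 passed. The list counts below were not tested against these totals. The deviations of same-numbered libraries correlated at 0.322, −0.35 and −0.108. So few values cannot decide whether the numbers pair the libraries. Of the chemokines, 0 passed with the replicate block, 1 with no filter, with DESeq2 (Cxcl1) and with Xist as a covariate (Ccl20), and 0 to 1 with each library left out. Other ligands past it numbered 3 with no filter, 2 with DESeq2, 1 with limma-voom, 1 with the replicate block (Ccl3), 1 with Xist as a covariate (Ccl6) and 0 to 3 with each library left out. Receptors numbered 1 with DESeq2, 3 with limma-voom, 1 with the replicate block (Ccr1), 1 without mitochondrial genes, 2 in the 4 libraries without Xist and 0 to 2 with each library left out. Induction genes, with Adam10, Adam17 and Pigr, numbered 2 with no filter, DESeq2, robust estimation off and the replicate block, 3 with limma-voom and with Xist as a covariate, 6 in the 4 libraries and 1 to 4 with each library left out.

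Ccl28 turned to 0.24 with limma-voom and 0.31 in the 4 libraries, Cxcl16 to −0.95 and −0.77, and Ccl25 to 0.026 in the 4 libraries. The neutrophil-attracting median was −0.23 where 10 counts per library were required, since Cxcl1 was not tested there, and 0.89 to 1.95 with each library left out. The interferon-induced median was −2.46 to 0.36 with each library left out, and the homeostatic median −0.25 to 0.039, with 0.17 in the 4 libraries. Log2 fold changes with each library left out ran from 0.93 to 1.95 for Cxcl1, −2.33 to 0.35 for Cxcl2, 0.89 to 2.15 for Cxcl5, −2.03 to 0.60 for Cxcl9, −2.88 to 0.13 for Cxcl10, −0.039 to 1.76 for Ccl20, −0.49 to 0.11 for Ccl25, −0.31 to 0.34 for Ccl28 and −0.34 to 0.60 for Cxcl16. The neutrophil minus interferon difference ran from −0.079 to 2.18. The causes were not tested. Scaling by library size alone moved the median of all genes to 0.054. Cxcl9 in f/f replicate 3 rests on 1 read and Cxcl1 there on 8.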

Other observations

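Nsd2 f/f replicate 3, lowest for 6 of the 10 chemokines, also stood apart in markers of gut position. Distal colon markers summed to 4827 CPM there and to between 1450 and 1647 CPM in the other 5 libraries, and 7 small intestine and proximal gut markers to 235.7 CPM, of which Apob makes up 60.6% over the libraries, against 46.7 to 68.6 CPM. Of these 7, 3 were highest in f/f replicate 3 and 2 lowest, with Apoa4 and Lct at 0 reads there, and 5 of the 7 distal colon markers were highest there. Pigr, which encodes the receptor that carries IgA across the epithelium, was at 8130 CPM there against 3994 to 5317 CPM elsewhere, and Ccl28 was also highest there. B and plasma cell markers, 70.9% of them Jchain, summed to 49, 6.05 and 26.3 CPM in Vil-KO replicates 1, 2 and 3 and to 16, 45.5 and 9.29 CPM in f/f replicates 1, 2 and 3, with both Xist-bearing libraries lowest as for Cxcl9 and Cxcl10. Their part in the chemokine levels was not tested.

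Dendritic cell markers summed to between 0.999 and 8.04 CPM, endothelial markers to between 4.93 and 7.15 CPM and squamous epithelial markers to between 1.13 and 3.36 CPM.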
